A study of Danio rerio with 49 samples.

Results

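The genes described here are 5 markers of neuronal identity and of transmitter release in the zebrafish spinal cord, taken by their Ensembl identifiers from the 40085 genes of the table: elavl3 (ENSDARG00000014420), elavl4 (ENSDARG00000045639), snap25a (ENSDARG00000020609), snap25b (ENSDARG00000058117) and isl1 (ENSDARG00000004023). Bulk RNA was sequenced from spinal cords of adult wild-type fish of the AB strain that had been cut through completely, collected 1, 2, 4 or 6 weeks after the injury (wpi, weeks post injury), and from uninjured fish of the same strain. Tissue caudal to the lesion and tissue rostral to it, 5 segments each, went into separate libraries, so that the 49 libraries fell into 10 groups: caudal and rostral cord at each of the 4 times, and caudal and rostral cord of uninjured fish. Each group had 5 libraries, except the caudal 6 wpi group with 4. Tissue was pooled, with 3 fish for each group and 4 or 5 libraries, so libraries of a group may share fish. Which fish went into which library is not given in the sources used here, and the p-values measure the spread between these libraries, which may be partly technical.

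The ELAV proteins bind AU-rich stretches of messenger RNA, and those made in neurons steady and help to splice the transcripts of differentiating and mature nerve cells. elavl3 (HuC) is widely used in zebrafish as a marker of all neurons, and elavl4 (HuD) is its close relative. SNAP-25 is the membrane-bound SNARE protein that, with syntaxin and synaptobrevin, brings synaptic vesicles to fuse with the plasma membrane, and zebrafish carry the paralogs snap25a and snap25b. isl1 encodes a LIM homeodomain transcription factor of motor neurons and of several classes of sensory neurons and interneurons.

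The values are FPKM, that is, fragments scaled by gene length and by library, which allows levels of different genes to be set side by side. Fragments on genes per library ranged between 4359571 and 26940599 with a median of 19801039, and mitochondrial genes took between 9.25 and 33.4% of them. The tissue carried the markers of its label: of the neuronal RNA-binding and cytoskeletal genes listed, 25 of 26 had a mean of at least 1 FPKM over the 49 libraries, as did 15 of 17 radial glia markers and 11 of 11 myelin markers.

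All 5 genes were detected in every library, at very different levels per length. snap25a averaged 1476 FPKM over the 49 libraries (range 692 to 3434) and was 28th of all 40085 genes by mean. elavl3 averaged 102 FPKM (63.6 to 139), snap25b 78.6 FPKM (37.7 to 134) and elavl4 67.2 FPKM (41.0 to 95.6). isl1 was the lowest at 12.3 FPKM (5.92 to 19.0), which still rested on 216 to 1036 fragments per library. In the coordinates of the table (danRer11), elavl3 lies on chromosome 3 from 46800190 to 46818001 (minus strand), elavl4 on chromosome 8 from 16004154 to 16117112 (plus strand) and snap25a on chromosome 20 from 34913069 to 34956230 (plus strand). snap25b lies on chromosome 17 from 12297984 to 12389259 (minus strand) and isl1 on chromosome 5 from 40728613 to 40734045 (minus strand).

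The first question was whether these neuronal transcripts differed between injured and uninjured cord. None of the 5 passed limma's moderated test (Benjamini-Hochberg adjusted p under 0.05 over all genes tested) at any of the 4 times in either region. In caudal cord, 0 of 5 were called at 1, 2, 4 and 6 wpi, where 13.2, 6.36, 1.38 and 0.461% of all genes tested were called. In rostral cord, 0 of 5 were called at these times, where 9.82, 15.1, 6.42 and 4.26% of all genes were called. At an unadjusted p under 0.05, the counts were 2, 0, 0 and 2 of 5 in caudal cord and 1, 1, 0 and 1 of 5 in rostral cord. These unadjusted counts are a description only, as no share of all genes is set beside them. limma-voom on the fragments called 0 of 5 in each comparison. In the blocked fits, 0 of 5 were called at 6 wpi in either region, with 92 genes called over all in caudal and 2019 in rostral cord, against 131 and 1207 without the block. Other settings did call some of the 5. In caudal cord at 1 wpi, snap25a and snap25b were called with all groups in 1 fit and after quantile normalization, and snap25a with the block. In rostral cord at 2 wpi, elavl3 was called in each of these settings, and snap25a after quantile normalization. These settings also called more of the whole table. The caudal fit with all groups called 6201 genes and the blocked rostral fit 5565, against 3712 and 4249 in the main fits. The calls of the 5 in these settings are a description only. Most estimates lay below 0: 8 of 8 for elavl3, snap25b and isl1, 7 of 8 for elavl4 and 6 of 8 for snap25a. The 4 comparisons of a region share their uninjured libraries, so these signs are not separate observations. Rescaling the libraries to their fragments on genes moved the median log2 change of all genes to between 0.19 and 0.31, against -0.03 to -0.00 as deposited, and turned 26 of the 55 estimates for these genes before that median was subtracted. The directions given here are therefore relative to the bulk of genes, and relative to that median the rescaled estimates of elavl3 in rostral cord at 1 wpi, isl1 in rostral cord at 2 wpi and elavl4 in caudal cord at 4 wpi came out above 0. In bulk tissue, fewer neurons and less RNA per neuron cannot be told apart.

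**Figure D1:**
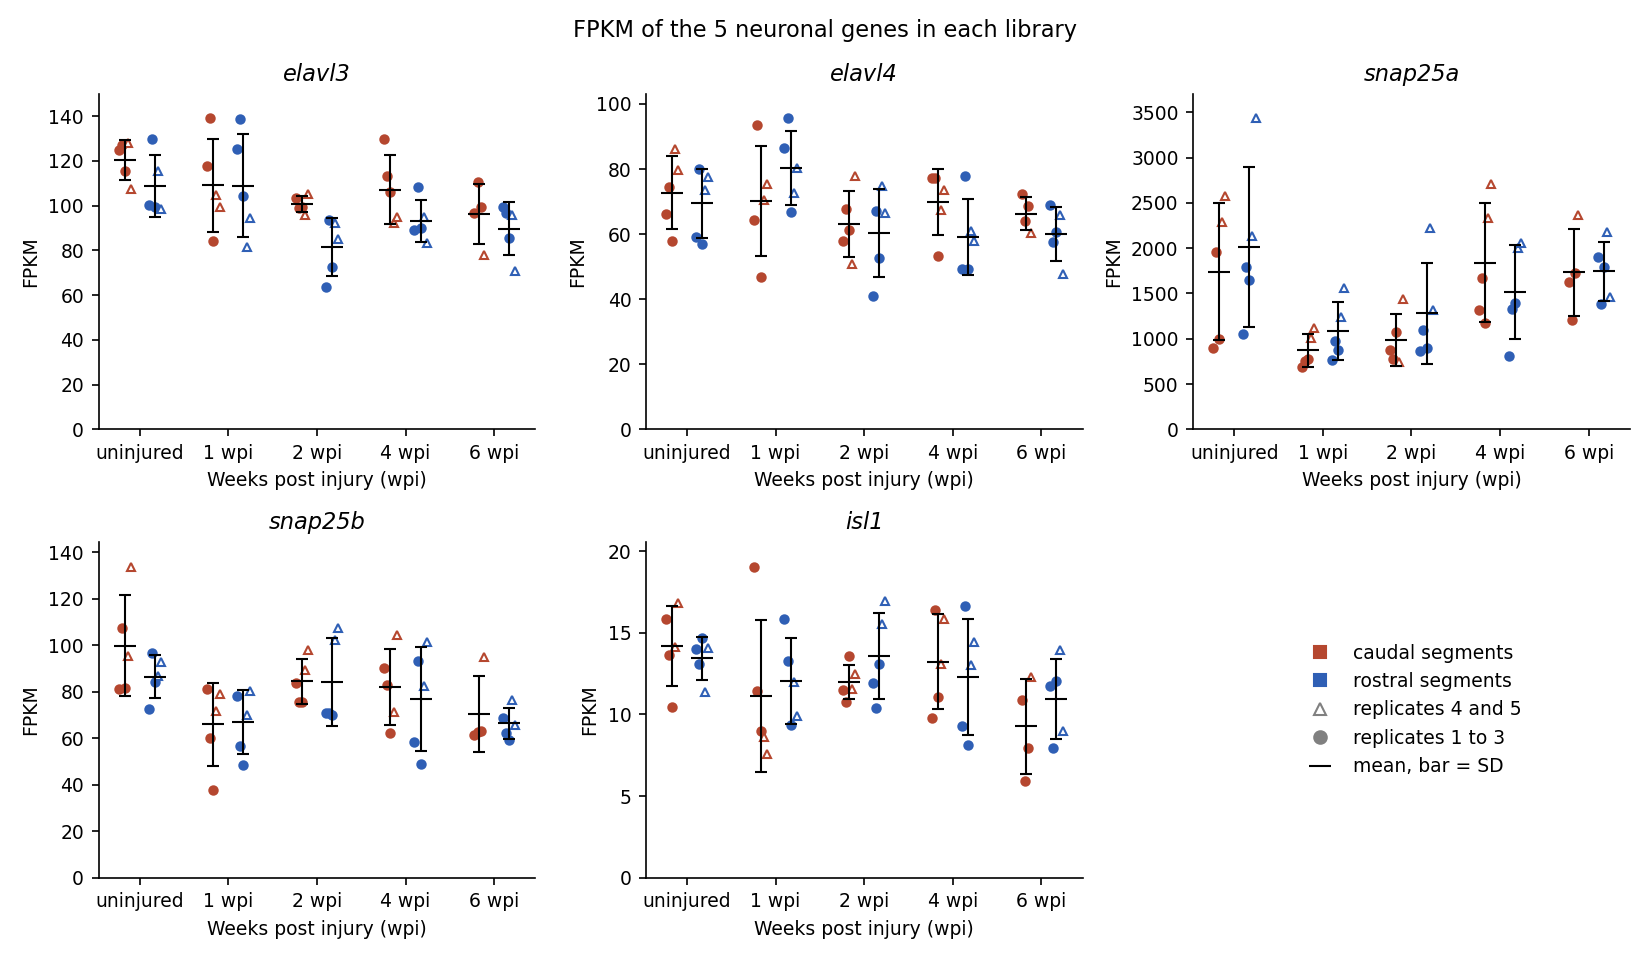
FPKM of elavl3, elavl4, snap25a, snap25b and isl1 in every library (y axis, linear) by group (x axis, caudal in red to the left of rostral in blue), with replicates 4 and 5 as open triangles, replicates 1 to 3 as filled circles and bars for the mean and SD. In the caudal 1 wpi libraries snap25a lies between 692 and 1118 FPKM, while the uninjured caudal libraries spread from 897 to 2577 FPKM.

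snap25a, the abundant SNARE gene, had the largest estimates. In caudal cord it stood at 692, 760, 776, 1010 and 1118 FPKM at 1 wpi, against 897, 1956, 998, 2286 and 2577 FPKM in uninjured cord. The injured libraries were close together and low, whereas the uninjured ones were widely spread and reached down into them, so the groups overlapped. The mean was 871 ± 183 FPKM at 1 wpi and 1743 ± 759.5 FPKM in uninjured cord (SD, n = 5 each), which put the 1 wpi mean at 49.99% of the uninjured one. The log2 change of -0.90 (SE 0.35, 95% interval -1.66 to -0.13) gave an adjusted p of 0.114 in limma's test, and 8.87% of all genes tested had a lower change.

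The rostral picture was similar. At 1 wpi snap25a stood at 761, 980.5, 876, 1241 and 1557 FPKM in rostral cord, against 1058, 1794, 1649, 2137 and 3434 FPKM in uninjured rostral cord. The groups overlapped, and the means were 1083 ± 319 FPKM at 1 wpi and 2014 ± 884 FPKM in uninjured cord (SD, n = 5 each). The log2 change was -0.84 (SE 0.38, 95% interval -1.67 to -0.00, limma adjusted p = 0.201).

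At 2 wpi the estimates were -0.74 in caudal cord (95% interval -1.51 to 0.03, adjusted p = 0.249) and -0.64 in rostral cord (-1.42 to 0.14, adjusted p = 0.250). At 4 wpi they were 0.13 in caudal cord (-0.78 to 1.04) and -0.38 in rostral cord, and at 6 wpi 0.08 (-0.85 to 1.01) and -0.12 (-0.84 to 0.59), each with an adjusted p of at least 0.639. The intervals reached below -1 at 2 wpi and above 1 in caudal cord at 4 and 6 wpi, so a wide range of changes remained possible. At 6 wpi the libraries stood at 1628, 1203, 1730 and 2369 FPKM in caudal cord and at 1907, 1386, 1787, 2174 and 1463 FPKM in rostral cord, within the range of the uninjured ones in both regions.

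The later groups were also set against 1 wpi. In caudal cord every 6 wpi library of snap25a (1203 to 2369 FPKM, n = 4) was above every 1 wpi library (692 to 1118 FPKM, n = 5), a pattern seen in 4.03% of all genes tested. The log2 difference between 6 and 1 wpi was 0.97 (SE 0.31, 95% interval 0.29 to 1.66), with an adjusted p of 0.106 in limma's test. By a correlation rule applied to these same data, the replicate numbers were taken to pair these libraries. Cord tissue was taken out at each time, so libraries of different times cannot share fish. What same-numbered libraries of different times have in common is not given in the sources used here. The fit blocked on the numbers gave a difference of 1.03 (SE 0.17, limma adjusted p = 0.0285). The difference was thus called with the block and not without it, and it was also called without a block after quantile normalization (1.31) and after rescaling (0.94 relative to the median of all genes). In rostral cord the difference was 0.71 (SE 0.31, 95% interval 0.04 to 1.39, adjusted p = 0.303) with overlapping groups. Of the 5 genes, 0 were called between 6 and 1 wpi without the block, where 4.35% of all genes were called in caudal cord and 1.61% in rostral cord. At an unadjusted p under 0.05 there were 1 and 2 of 5, a description only, with no share of all genes beside it. With the block, 1864 genes in caudal and 1186 in rostral cord were called over all, against 1216 and 452 without it. In caudal cord, quantile normalization called 516 genes higher and 869 lower, and rescaling called 189 higher and 974 lower.

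snap25b, the less abundant paralog, ran lower than uninjured cord at 1 and at 6 wpi without passing the test. In caudal cord at 1 wpi it stood at 81.3, 60.3, 37.7, 71.6 and 79.0 FPKM, against 81.0, 107, 81.8, 95.5 and 134 FPKM in uninjured cord. Apart from replicate 1, which reached the low end of the uninjured range, the injured libraries lay below it. The means were 66.0 ± 17.8 FPKM at 1 wpi and 99.8 ± 21.8 FPKM in uninjured cord (SD, n = 5 each), a log2 change of -0.62 (SE 0.24, 95% interval -1.15 to -0.10, limma adjusted p = 0.112).

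At 6 wpi in caudal cord snap25b stood at 61.6, 62.6, 62.9 and 94.9 FPKM in replicates 1, 2, 3 and 5. Of these, only replicate 5 lay inside the uninjured range of 81.0 to 134 FPKM. The log2 change was -0.50 (SE 0.22, adjusted p = 0.424), and 12.4% of all genes had a lower one. In rostral cord at 6 wpi the libraries stood at 68.6, 62.4, 59.4, 76.5 and 65.5 FPKM, against 72.6, 96.5, 84.1, 86.8 and 92.7 FPKM in uninjured cord, and only replicate 4 overlapped that range. The log2 change there was -0.38 (SE 0.15, adjusted p = 0.186). By the same correlation rule, the replicate numbers were taken to pair the 6 wpi with the uninjured libraries. Between same-numbered libraries snap25b was lower at 6 wpi in 4 of 4 caudal and 5 of 5 rostral pairs. The share of all genes with such an order was not counted, so the pairs are a description only. In the fits blocked on the number its changes were -0.51 in caudal cord (SE 0.14, adjusted p = 0.168) and -0.38 in rostral cord (SE 0.13, adjusted p = 0.127), again short of a call. At 2 wpi the means of 84.5 ± 9.61 FPKM in caudal and 84.3 ± 18.9 FPKM in rostral cord (SD, n = 5 each) had changes of -0.22 and -0.06.

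**Figure D2:**
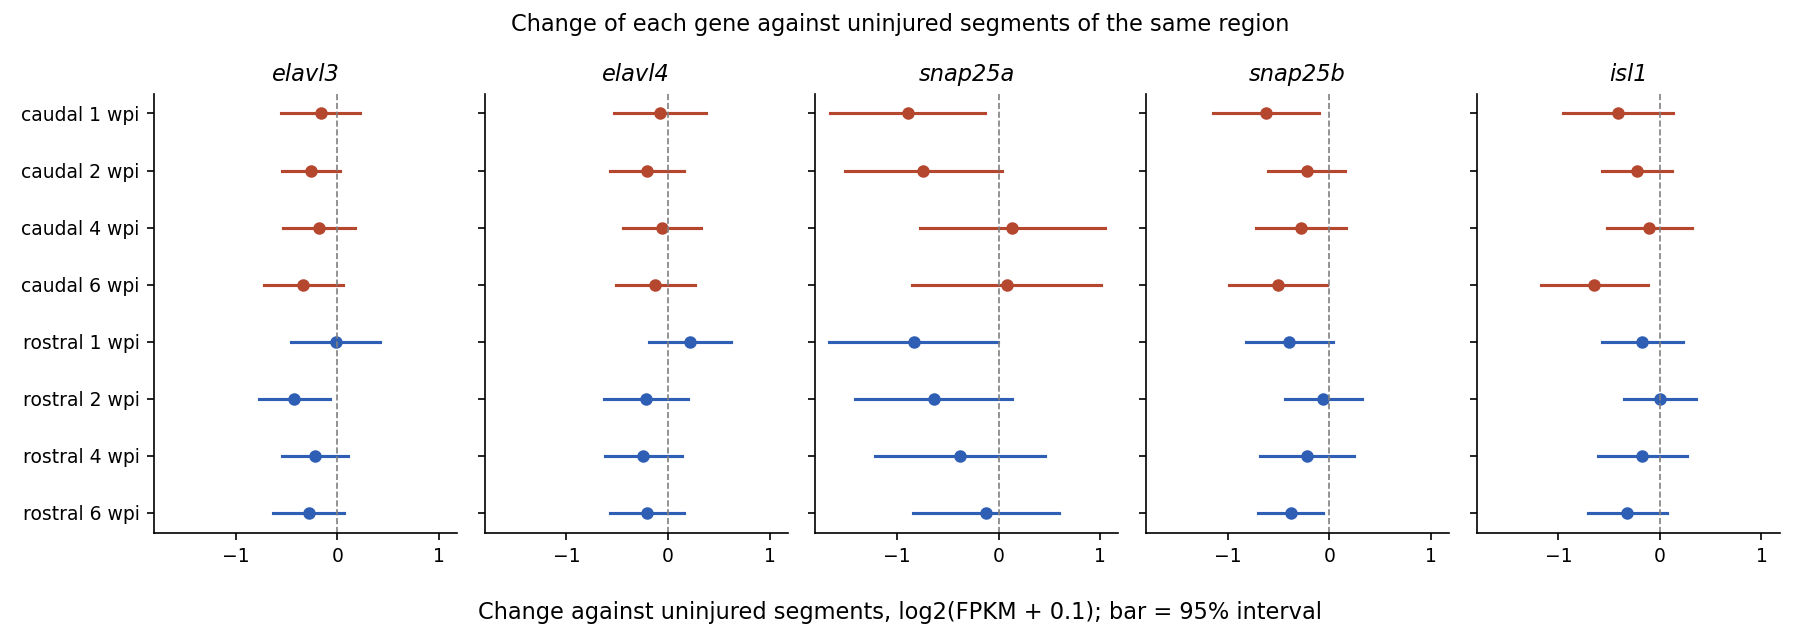
log2 change of each gene against uninjured cord of the same region (x axis, log2 scale of FPKM + 0.1), with points for the estimate, lines for the 95% interval of limma's fit, and caudal rows above rostral rows for 1, 2, 4 and 6 wpi. The snap25a intervals are the widest, as at -1.66 to -0.13 for caudal 1 wpi, and those of elavl3 and elavl4 stay between -0.77 and 0.62.

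elavl3, the pan-neuronal RNA-binding protein gene, had small estimates, and in the test without a block its closest approach to a call was at 2 wpi. In rostral cord it stood at 63.6, 93.6, 72.7, 92.3 and 85.3 FPKM at 2 wpi, against 100.4, 129.8, 99.5, 115.6 and 98.6 FPKM in uninjured cord. All 5 injured libraries were below all 5 uninjured ones, an order that 5.52% of all genes tested showed in this comparison. The means were 81.5 ± 13.0 FPKM at 2 wpi and 109 ± 13.7 FPKM in uninjured cord (SD, n = 5 each), with a log2 change of -0.42 (SE 0.16, 95% interval -0.77 to -0.07, limma adjusted p = 0.0962).

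In caudal cord at 2 wpi the elavl3 libraries stood at 103, 99.1, 99.5, 96.0 and 105 FPKM, against 125, 127, 116, 128 and 107 FPKM in uninjured cord. Here too the groups did not overlap, which held for 2.88% of all genes tested. The 2 wpi libraries were the tightest of any group for this gene, with a mean of 100.6 ± 3.65 FPKM, and uninjured cord averaged 121 ± 8.92 FPKM (SD, n = 5 each). The log2 change was -0.26 (SE 0.13, 95% interval -0.55 to 0.03, adjusted p = 0.285). Across the 8 comparisons with uninjured cord, the elavl3 estimates ran from -0.42 to -0.02 and their intervals from -0.77 to 0.42.

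elavl4 showed no group that stood apart from uninjured cord. Its highest mean was 80.4 ± 11.3 FPKM in rostral cord at 1 wpi and its lowest 59.0 ± 11.7 FPKM in rostral cord at 4 wpi (SD, n = 5 each), either side of 69.4 ± 10.7 FPKM in uninjured rostral cord. The 1 wpi libraries stood at 86.5, 95.6, 66.7, 72.7 and 80.4 FPKM, against 59.2, 80.1, 56.85, 73.4 and 77.5 FPKM in uninjured cord. The log2 change of 0.21 (95% interval -0.19 to 0.62, adjusted p = 0.533) was the only one above 0 for this gene, and the other 7 ran down to -0.24. Between 6 and 1 wpi in rostral cord the difference was -0.42 (SE 0.17, adjusted p = 0.272 in limma's test).

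isl1, the LIM homeodomain gene, had its lowest mean in caudal cord at 6 wpi. The libraries there stood at 10.9, 5.92, 7.92 and 12.3 FPKM, against 15.8, 13.6, 10.45, 14.1 and 16.8 FPKM in uninjured cord. Replicates 2 and 3 were the lowest, and replicates 1 and 5 overlapped the uninjured range. The means were 9.26 ± 2.88 FPKM (SD, n = 4) at 6 wpi and 14.2 ± 2.44 FPKM (SD, n = 5) in uninjured cord, a log2 change of -0.64 (SE 0.24, 95% interval -1.17 to -0.12, limma adjusted p = 0.322). It was lower at 6 wpi in 4 of 4 same-numbered pairs, an order whose share over all genes was not counted. The blocked fit gave -0.64 (SE 0.17, adjusted p = 0.163). At 1 wpi the caudal libraries of isl1 spread the most of all its groups, at 19.0, 11.4, 8.98, 8.59 and 7.58 FPKM with a coefficient of variation of 41.8%, and replicate 1 was above every uninjured caudal library. That log2 change was -0.41 (95% interval -0.95 to 0.13, adjusted p = 0.304), and the other 6 estimates ran from -0.32 to -0.00.

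Between caudal and rostral cord of uninjured fish no difference was called for any of the 5 genes. elavl3 averaged 121 ± 8.92 FPKM in caudal and 109 ± 13.7 FPKM in rostral cord, and isl1 14.2 ± 2.44 and 13.4 ± 1.30 FPKM in these regions (SD, n = 5 each). The log2 differences, caudal minus rostral, were 0.15 for elavl3, 0.07 for elavl4, -0.23 for snap25a, 0.19 for snap25b and 0.06 for isl1, and 0 of 5 were called, with 0 at an unadjusted p under 0.05, where 0.0213% of all genes were called. The interval for snap25a, the widest of the 5, ran from -1.11 to 0.65 in the fit without the block, which left a wide range of differences possible. By the correlation rule the replicate numbers were taken to pair these libraries, with a mean r of 0.688 between same-numbered ones. The values here leave that pairing out, so the width of the interval holds for the unpaired fit only. With the block, 17 genes were called over all, and 0 of 5.

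The second question was whether the response to injury differed between regions. The difference of the 2 changes, caudal minus rostral, was tested as an interaction and was called for 0 of 5 genes at each time, where 0% of all genes were called in limma's test and 391 to 798 genes per time had an unadjusted p under 0.05. When the fit was blocked on the replicate number, 3, 102, 137 and 0 genes of the whole table were called at 1, 2, 4 and 6 wpi, and 0 of the 5. By the correlation rule the replicate numbers were taken to pair caudal and rostral libraries of the same week. The mean r between same-numbered ones was 0.548 to 0.692 over the 4 times. The fit without the block leaves that pairing out, so its 0% of calls and its intervals hold for the unpaired fit only. Without the block, the 5 differences at 1 wpi ran from -0.29 to -0.06, and their intervals from -1.10 to 0.98. At 4 wpi, also without the block, the differences ran from -0.06 to 0.51, the largest being that of snap25a, and the intervals from -0.66 to 1.67.

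Ordered by level, the 10 groups gave a different order for each gene. The highest and lowest group means differed by 2.31 times for snap25a (871 ± 183 FPKM in caudal cord at 1 wpi and 2014 ± 884 FPKM in uninjured rostral cord), and by 1.36 to 1.53 times for the others. By means, the lowest group for elavl3 was rostral cord at 2 wpi (81.5 FPKM), for snap25b caudal cord at 1 wpi (66.0 FPKM) and for isl1 caudal cord at 6 wpi (9.26 FPKM). Uninjured caudal cord was the highest for all 3 (121, 99.8 and 14.2 FPKM). By medians, the lowest was caudal cord at 6 wpi for snap25b (62.8 FPKM) and caudal cord at 1 wpi for isl1 (8.98 FPKM). The highest median of snap25a was in uninjured caudal cord (1956 FPKM). For elavl4 rostral cord at 4 wpi was the lowest (59.0 FPKM) and rostral cord at 1 wpi the highest (80.4 FPKM). Sorting puts groups of like level side by side, so the neighbours are given as a description only: of the 45 pairs, 0 differed by more than 1 pooled SD by means, and 1 by medians.

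The spread within groups differed between the genes. The median coefficient of variation over the 10 groups was 13.6% for elavl3 and 15.4% for elavl4, against 25.8% for the 731 genes within a factor of 2 of the elavl3 level and 24.9% for the genes near elavl4. The SNARE genes were looser, at 31.9% for snap25a (35.1% for the 38 genes of like level) and 21.2% for snap25b (25.3%), and isl1 at 21.8% (21.9%) was like its neighbours in level. The ELAV genes were therefore the more evenly measured markers.

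Much of the snap25a spread followed the replicate number. What set replicates 4 and 5 apart from replicates 1 to 3 is not given in the sources used here. snap25a averaged higher in them than in replicates 1 to 3 in all 10 groups, and in 8 groups each of replicates 4 and 5 was above each of replicates 1 to 3 (caudal cord at 6 wpi has no replicate 4). In uninjured rostral cord, for example, it stood at 2137 and 3434 FPKM in replicates 4 and 5, against 1058, 1794 and 1649 FPKM in replicates 1 to 3. The ratio of the 2 means had a median over groups of 1.67 (1.07 to 1.89) for snap25a and 1.24 (1.06 to 1.52) for snap25b. For elavl3 it was 0.914 (0.718 to 1.16), with replicates 4 and 5 higher in 1 group of 10, and for elavl4 and isl1 1.02 and 1.12. Of the 16311 genes with a mean of at least 1 FPKM, 5.73% had replicates 4 and 5 all above replicates 1 to 3 in at least 8 groups, and 38.8% in at least 3 groups, the number snap25b reached. Within replicates 1 to 3 the caudal 1 wpi change of snap25a was -0.70 (limma adjusted p = 0.372), and within replicates 4 and 5 it was -1.19 (adjusted p = 0.0536). The rostral changes at 1 wpi were -0.75 within replicates 1 to 3 and -0.96 within replicates 4 and 5, so the estimates lay below 0 in both sets.

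**Figure D3:**
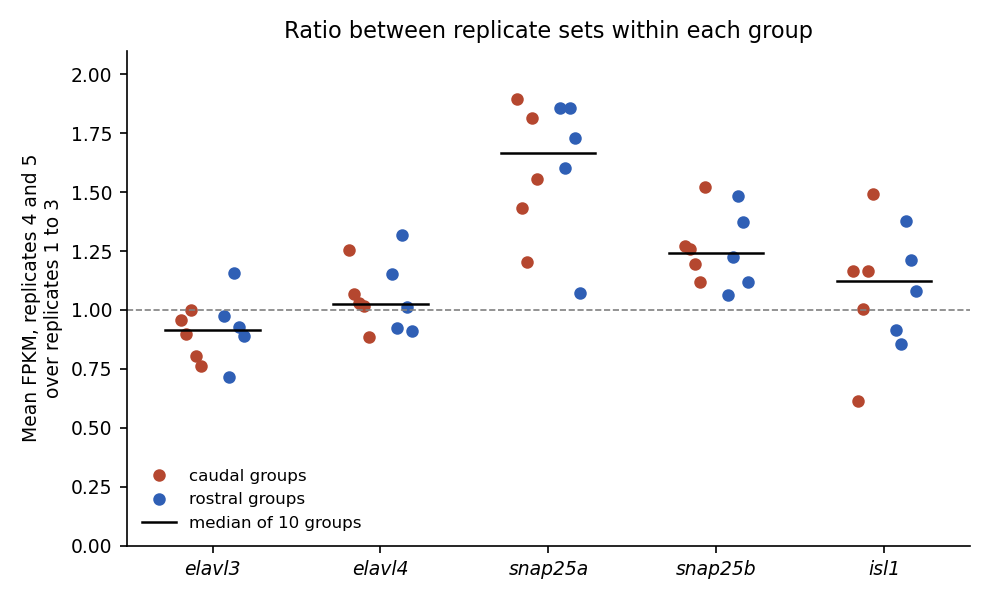
Ratio of the mean FPKM in replicates 4 and 5 to the mean in replicates 1 to 3 (y axis, a ratio) for each gene (x axis), with a point for each of the 10 groups. The snap25a points all lie above 1, with a median of 1.67, and those of elavl3 lie around 0.914.

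Because the paralogs snap25a and snap25b encode the same kind of protein, their ratio was followed in each library. The ratio of snap25a to snap25b FPKM was 24.5 ± 3.68 (SD, n = 4) in caudal cord at 6 wpi, 14.0 ± 4.35 at 1 wpi and 16.9 ± 5.32 in uninjured caudal cord (SD, n = 5 each). In rostral cord it was 26.2 ± 3.66 at 6 wpi, 16.4 ± 3.84 at 1 wpi and 22.9 ± 8.68 in uninjured cord (SD, n = 5 each), and its lowest mean was 11.6 ± 2.75 in caudal cord at 2 wpi. Of 24 exact two-sided permutation tests of ratios between members against uninjured cord, 0 passed after Benjamini-Hochberg adjustment and 1 had an unadjusted p under 0.05. The smallest p reachable was 0.00794 with 5 against 5 libraries, so 1 ratio alone could not pass after adjustment over 24 tests, however large its change. The adjusted count therefore decides nothing about a single ratio, also with 1 library left out. With 1 library left out, 0 passed after adjustment and the unadjusted count ran from 0 to 5. It was 5 without uninjured rostral replicate 5, 3 without uninjured rostral replicate 1, and 2 without caudal 1 wpi replicate 1 or rostral 2 wpi replicate 2 or 4. It was 0 without any 1 of caudal 6 wpi replicates 1, 3 and 5 and uninjured caudal replicates 2 to 5. The 1 in all libraries was the log2 ratio of snap25b to snap25a in caudal cord at 6 wpi, which differed from uninjured cord by -0.58 (exact permutation p = 0.0476, adjusted p = 0.419, smallest p reachable 0.0159). The ratio of elavl4 to elavl3 stayed between 0.61 and 0.75 over the 10 group means, and that of isl1 to elavl3 between 0.10 and 0.17.

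**Figure D4:**
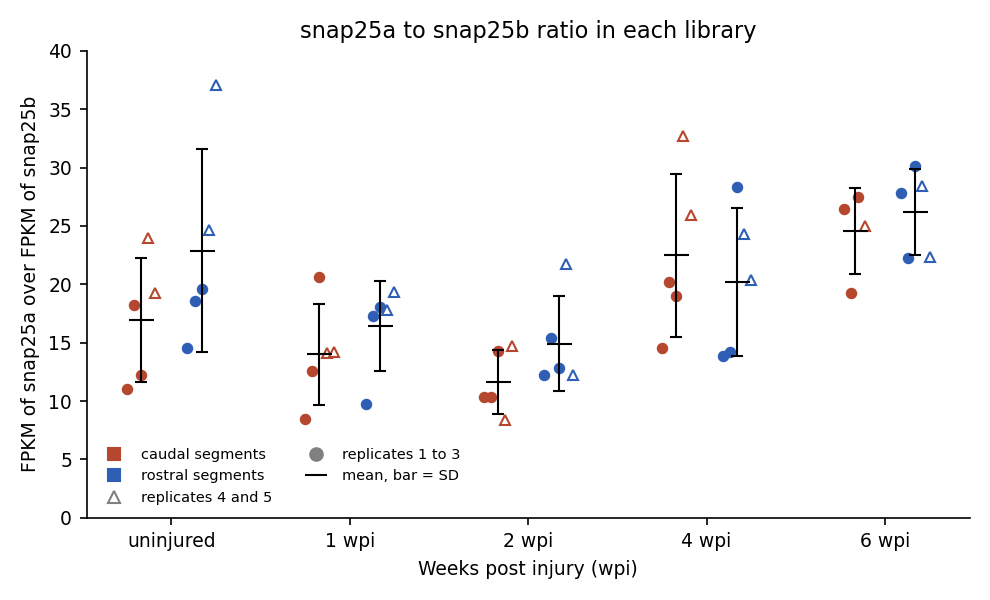
Ratio of snap25a to snap25b FPKM in every library (y axis, a ratio) by group (x axis, caudal to the left of rostral), with replicates 4 and 5 as open triangles, replicates 1 to 3 as filled circles and bars for the mean and SD. The 6 wpi groups of both regions have the highest means, 24.5 and 26.2, and caudal 2 wpi has the lowest, 11.6. Single libraries reach higher in uninjured rostral cord (37.0) and in caudal cord at 4 wpi (32.7) than at 6 wpi (27.5 in caudal and 30.1 in rostral cord).

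Across all 49 libraries the members moved together only in part. Pearson's r of the log2 levels was 0.697 between elavl3 and elavl4, 0.602 between snap25b and isl1 and 0.478 between snap25a and snap25b, and -0.073 between elavl3 and snap25a. These are descriptions: the libraries share groups and replicate sets, and the r within groups was 0.665, 0.529, 0.572 and -0.142 for these pairs.

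The genes most like each member, among 13354 named genes with a mean of at least 1 FPKM, were as follows over the 49 libraries. elavl3 was closest to BEND4 (r = 0.853), gfra3, a receptor of the GDNF family (0.819), and snap91b, a clathrin assembly protein of nerve terminals (0.815). elavl4 was closest to ATL1 (0.768), cadm3, a cell adhesion molecule (0.751), and ZNRF1 (0.739). snap25a was closest to necap1, an endocytosis factor (0.865), ndrg3a (0.864) and SERINC1 (0.861). snap25b was closest to tubb4bl, a tubulin gene (0.769), the potassium channel gene KCNJ3 (0.758) and ppp1r14d (0.750). For isl1 the leading genes were both of the identifiers named ISL2, its LIM homeobox relative (ENSDARG00000003971 at 0.838 and ENSDARG00000053499 at 0.781), and then the cation channel gene TRPC4 (0.739).

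Other neuronal genes were counted by lists that leave the members out. Of the synaptic vesicle release genes in caudal cord at 1 wpi, 0 of 32 tested were called higher and 9 lower, with a median log2 change of -0.66, against -0.02 for all genes, of which 5.53% were called lower. Of the neuronal RNA-binding and cytoskeletal genes, 1 of 25 was higher and 6 were lower (median -0.56), and of the transmitter identity genes, 0 of 18 were higher and 5 lower (-0.68). The counts rested on few libraries: leaving out 1 library gave 3 to 12 lower synaptic vesicle genes, 2 to 9 RNA-binding and cytoskeletal genes and 2 to 6 transmitter genes. The synaptic vesicle count was 3 without replicate 4 of either group, 4 without 1 wpi replicate 3 and 5 without 1 wpi replicate 5 or uninjured replicate 1, 2 or 3. The RNA-binding and cytoskeletal count was 2 without 1 wpi replicate 4 or 5, 3 without 1 wpi replicate 3 or uninjured replicate 2 or 4, and the transmitter count was 2 or 3 without any 1 of 1 wpi replicates 3 to 5 and uninjured replicates 1 to 4. After rescaling to fragments on genes, 1, 2 and 1 genes of these lists were called lower and 3, 1 and 0 higher, while the list medians relative to all genes stayed below 0 at -0.60, -0.49 and -0.62. Over all genes, the share of calls that were higher was 57.9% as deposited and 92.4% after rescaling.

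At 1 wpi in rostral cord, 1 of 30 synaptic vesicle genes was higher and 4 were lower (median -0.48), as were 0 and 2 of 25 RNA-binding and cytoskeletal genes (-0.46) and 0 and 3 of 18 transmitter genes (-0.38), against 6.32% of all genes called higher and 3.50% called lower. The higher gene was nsfb, an ATPase that takes SNARE complexes apart (log2 change 0.65, limma adjusted p = 0.0351), and its call was lost with any 1 library left out except 1 wpi replicate 1 or uninjured replicate 4 (adjusted p = 0.0538 to 0.0916). At 2 wpi the counts in rostral cord were 1 higher and 9 lower of 31 (-0.63), 1 higher and 10 lower of 26 (-0.57) and 0 higher and 6 lower of 18 (-0.63) for the same lists, against 6.14% of all genes called lower. Leaving out 1 library gave 4 to 10, 8 to 12 and 3 to 7 lower calls at 2 wpi. The low ends were 4 synaptic vesicle genes without 2 wpi replicate 3, 5 without 2 wpi replicate 1 or 5 or uninjured replicate 1, 2 or 3, and 3 transmitter genes without 2 wpi replicate 3 or 5. After rescaling, 0, 0 and 0 genes of the lists were lower at 1 wpi and 2, 1 and 1 higher, and at 2 wpi 0, 2 and 1 were lower and 2, 1 and 0 higher, with list medians still below that of all genes. The share of higher calls over all genes was 64.4% at 1 wpi and 59.5% at 2 wpi as deposited, and 95.6% and 94.2% after rescaling.

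The synaptic vesicle list had 1 call in all at 4 and 6 wpi. In caudal cord it had 0 calls in either direction at 2, 4 and 6 wpi, with medians of -0.53, -0.23 and -0.24, where 1.89, 0.226 and 0.116% of all genes were called lower. Without uninjured replicate 5, 4 of its genes were lower in caudal cord at 2 wpi. In rostral cord it had 1 lower at 4 wpi and 0 at 6 wpi, with medians of -0.50 and -0.39, where 1.43 and 0.823% of all genes were lower. The count at 4 wpi was 0 without 4 wpi replicate 1 or 3 or uninjured replicate 2 or 3, and 2 without 4 wpi replicate 2 or uninjured replicate 5. Of the RNA-binding and cytoskeletal list, 5 genes were lower in rostral cord at 4 wpi. That count was 4 to 6 with 1 library left out and 3 after rescaling. In caudal cord this list had 1 lower at 4 wpi (0 to 2 with 1 library left out) and 0 at 6 wpi. The replicate block, taken to pair the libraries at 6 wpi, called 3 synaptic vesicle genes and 6 RNA-binding and cytoskeletal genes lower in rostral cord at 6 wpi. Without it the counts were 0 and 3. The block also called more genes over all in this comparison, and the share called lower with it is not given here. The blocked counts are therefore a description only. The count of 3 without the block was 1 when uninjured replicate 3 or 6 wpi replicate 2, 4 or 5 was left out. Between 6 and 1 wpi, tested gene by gene, of the synaptic vesicle genes 1 of 31 was higher in caudal cord (median 0.41) and 0 of 30 in rostral cord (0.08). Over all genes 356 of 27956 were higher in caudal cord and 151 of 28109 in rostral cord.

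**Figure D5:**
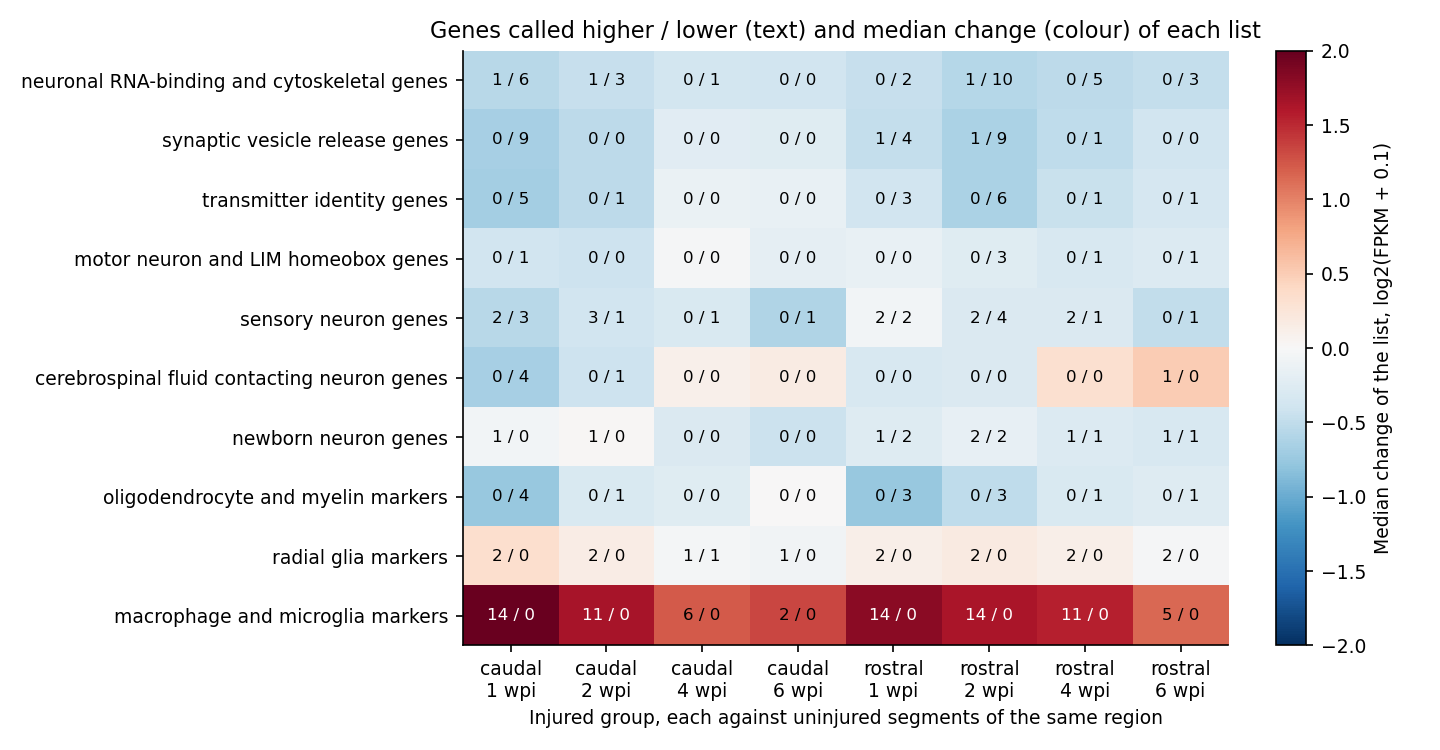
Number of genes called higher / lower in each list (rows) and comparison with uninjured cord (columns, caudal before rostral, 1 to 6 wpi), with the colour giving the list's median log2 change (FPKM + 0.1). The synaptic vesicle and transmitter rows are bluest at caudal 1 wpi and rostral 2 wpi, with medians of -0.66 and -0.68 and of -0.63 and -0.63, and the macrophage row is red throughout.

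Several of the listed genes moved far more than the members. The neurofilament genes nefla and nefmb, whose proteins fill large axons, fell in caudal cord at 1 wpi: nefla averaged 76.6 ± 47.6 FPKM, against 442 ± 290 FPKM in uninjured cord (log2 change -2.59, adjusted p = 0.00488, limma, n = 5 each). nefmb averaged 172 ± 98.8 FPKM at 1 wpi and 800.2 ± 329 FPKM in uninjured cord (-2.31, adjusted p = 0.00325). The rostral changes at 1 wpi were -1.998 for nefla (adjusted p = 0.0144) and -1.87 for nefmb (adjusted p = 0.0107), and all 4 calls held with any 1 library left out. The 2 rostral calls were lost after rescaling. Calls after rescaling were still made against 0, although the median of all genes had moved to 0.31 in this comparison. Over all genes in rostral cord at 1 wpi, 986 were called lower as deposited and 143 after rescaling. UCHL1 went the other way, as the 1 gene of the neuronal RNA-binding and cytoskeletal list called higher in caudal cord at 1 wpi. It averaged 514 ± 250 FPKM, against 208 ± 33.5 FPKM in uninjured cord (log2 change 1.198, limma adjusted p = 0.0240, n = 5 each). The UCHL1 call was lost without 1 wpi replicate 5 or uninjured replicate 3 or 4 (adjusted p = 0.0591 to 0.0622).

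Of the synaptic vesicle genes, the active zone gene rims2a averaged 24.5 ± 2.66 FPKM in rostral cord at 1 wpi and 51.1 ± 8.92 FPKM in uninjured cord (log2 change -1.04, limma adjusted p = 0.00342, n = 5 each), and sypb, a synaptophysin gene, had a change of -0.89 (adjusted p = 0.0144). Both calls held with any 1 library left out. Both were lost after rescaling, where lower calls over all genes went from 986 to 143. In caudal cord at 1 wpi SYT2, a calcium sensor of vesicle fusion, had a change of -1.22 (adjusted p = 0.0368), and its call was lost without any 1 of 1 wpi replicates 3 to 5 and uninjured replicates 1 to 4 (adjusted p = 0.0618 to 0.0927).

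Closer to isl1, the motor neuron and LIM homeobox list had 0 of 19 genes called higher and 1 lower in caudal cord at 1 wpi (median -0.38), and 0 in either direction in rostral cord at 1 wpi (-0.15). Over all genes in caudal cord at 1 wpi, 2151 were called higher and 1561 lower of 28212 tested, so 1 of 19 was near the share over all genes. The 1 lower gene was ACHE, which encodes acetylcholinesterase and averaged 33.7 ± 4.55 FPKM at 1 wpi and 65.6 ± 10.2 FPKM in uninjured cord (-0.96, limma adjusted p = 0.00449, n = 5 each). Its call was lost after rescaling, where lower calls over all genes in caudal cord at 1 wpi went from 1561 to 327. At 2 wpi 3 of 19 were lower in rostral cord (median -0.24), against 1722 of 28063 over all genes. The count was 1 without 2 wpi replicate 5 or uninjured replicate 3. It was 0 after rescaling, where 212 of all genes were called lower. Of the genes of cerebrospinal fluid contacting neurons, 4 of 8 were lower in caudal cord at 1 wpi (median -0.66), among them the channel gene PKD2L1 (-0.88, adjusted p = 0.0195), and the count was 0 without 1 wpi replicate 5 or uninjured replicate 3, 1 without 1 wpi replicate 1, 3 or 4 or uninjured replicate 2 or 4, and 2 without uninjured replicate 1. PKD2L1 itself was no longer called without 1 wpi replicate 5 (adjusted p = 0.0533) or uninjured replicate 3 (0.0521). After rescaling, 0 genes of its list were called in either direction.

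The lists of sensory and newborn neuron genes were mixed. Over all 28212 genes tested in caudal cord at 1 wpi, 2151 were called higher and 1561 lower. In rostral cord at 1 wpi these were 1781 and 986 of 28174. In caudal cord at 1 wpi 2 of 18 sensory neuron genes were higher and 3 lower, the lower count being 1 without any 1 of 1 wpi replicates 3 to 5 and uninjured replicates 2 to 5 and 5 without 1 wpi replicate 1. Among the higher was trpv1, a heat-gated channel, at 3.78 ± 0.695 FPKM, against 1.18 ± 0.442 FPKM in uninjured cord (log2 change 1.65, limma adjusted p = 0.00243, n = 5 each). NTRK3, a neurotrophin receptor, averaged 3.34 ± 0.632 FPKM at 1 wpi and 6.79 ± 0.610 FPKM in uninjured cord (-1.02, adjusted p = 0.00400), and was no longer called after rescaling. The sensory neuron list then had 3 genes higher and 0 lower, and over all genes 4000 were called higher and 327 lower. Of the newborn neuron genes, 1 of 18 was higher and 0 lower in caudal cord and 1 higher and 2 lower in rostral cord at 1 wpi. The higher one was tubb5 in both regions, at 797 ± 374 FPKM, against 265 ± 95.7 FPKM in uninjured cord in caudal tissue (1.52, adjusted p = 0.0332), and its change in rostral tissue was 1.65 (adjusted p = 0.0241). The tubb5 call was lost in caudal cord without any 1 of 1 wpi replicates 2, 4 and 5 and uninjured replicates 2 to 5 (adjusted p = 0.0501 to 0.0835) and in rostral cord without 1 wpi replicate 4 or 5 (0.0563 and 0.0572). The gene with the largest fall of this list in rostral cord was neurog1, a proneural transcription factor gene, at 3.51 ± 1.21 FPKM, against 8.83 ± 2.80 FPKM in uninjured cord (-1.30, limma adjusted p = 0.0133). Its call was lost after rescaling, where lower calls over all genes in rostral cord at 1 wpi went from 986 to 143.

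Markers of other cells moved in the same comparisons, where 2151 of 28212 genes were called higher and 1561 lower in caudal cord at 1 wpi. In rostral cord 1781 of 28174 were called higher and 986 lower. Of the macrophage and microglia markers, 14 of 20 were higher and 0 lower in caudal cord at 1 wpi (median 1.98), and their summed level was 8535 to 23175 FPKM per library, against 440 to 3253 FPKM in uninjured cord. The rostral count at 1 wpi was also 14 of 20 (median 1.80), with sums of 5710 to 15189 FPKM, against 414 to 2838 FPKM in uninjured cord. Of the myelin markers, 4 of 11 were lower in caudal cord at 1 wpi (median -0.75), and 0 were higher, with sums of 13959 to 26557 FPKM, against 40489 to 137820 FPKM in uninjured cord. apoeb, an apolipoprotein gene of microglia, rose most of the macrophage list, with a log2 change of 4.48 in caudal cord at 1 wpi (limma adjusted p = 0.000308), and 0 of the macrophage markers were at 0 in all libraries. The macrophage sums were mostly this gene. At 1 wpi apoeb averaged 14812 FPKM in caudal and 9801 FPKM in rostral cord, beside median sums of 14608 and 10225 FPKM. The part of these shifts in the lower neuronal estimates was not tested.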

How the data were processed

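Total RNA of pooled spinal cord tissue was made into libraries and sequenced on an Illumina platform. Per the labels and the study's methods, the submitters' processing notes name HISAT2 2.0.5, featureCounts 1.5.0-p3 and danRer11. The authors deposited FPKM for 40085 genes in 49 libraries, and 0 columns were left unmatched to a sample. Multiplying by gene length gave back whole fragments for 100% of the values under 1000 fragments (tolerance 0.01), and the divisor followed the libraries' median-of-ratios size factors (coefficient of variation of the ratio 0.353%) rather than their totals (22.955%). FPKM here is therefore already scaled between libraries, and a sum over genes carries no depth.

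Genes with a mean of at least 0.1 FPKM in a comparison's libraries were tested as log2(FPKM + 0.1) with limma 3.58.1 in R 4.3.3, with an intensity trend, two-sided, for each pair of groups alone, and p-values were adjusted over all genes tested (Benjamini-Hochberg, threshold 0.05). The pseudocount understates changes of low genes. An interaction fit gave the difference between regions. Ratios were compared by exact permutation tests (scipy 1.17.1). The fits were tested on simulated data for 3 of the comparisons (rostral 1 wpi and caudal 6 wpi against uninjured, and the difference between regions at 1 wpi). The alternatives were a pseudocount of 1 or 0.01, no filter or a mean of at least 1 FPKM, quantile normalization, rescaling to fragments on genes, all groups in 1 fit, no trend, the replicate number as a block, voom on the fragments, replicates 1 to 3 or 4 and 5 only, and each library left out in turn. The same alternatives for the lists of other genes were chosen after seeing the data.

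Replicate numbers were taken to pair libraries where every same-numbered pair of deviations from the group means correlated above 0.1. This held for 6 wpi against uninjured (lowest r 0.162 in caudal and 0.166 in rostral cord), for 6 against 1 wpi (0.161 and 0.273), for caudal against rostral uninjured cord (0.467) and for caudal against rostral cord of the same week (0.327 to 0.591). It did not hold for 1, 2 and 4 wpi against uninjured cord. The rule was applied to these same data. Libraries of different times cannot share fish, and what their same-numbered libraries have in common is not given in the sources used here. It also rested on the lowest pair. The mean r was 0.258 for caudal 1 wpi against uninjured, where the rule failed, and 0.260 for rostral 6 wpi, where it held.

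The members and the gene lists were chosen with earlier results of these data known. Listed genes were named by a rule: at most 2 called genes with the largest rise and 2 with the largest fall per list at 1 wpi, and not all of these are reported here. Symbols came from the table and from the reference's gene names, which gave a symbol to 29178 of the 31901 Ensembl identifiers. The methods state no strand for the counting, so reads of overlapping or near-identical genes may be shared.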

Additional observations from a re-analysis of the deposited data

Results flagged for a closer look

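One value stood apart from its group by Dixon's criterion: snap25b in caudal cord at 6 wpi, where replicate 5 had 94.9 FPKM and replicates 1, 2 and 3 had 61.6, 62.6 and 62.9 FPKM. Its gap to the nearest other library was 0.96 of the group's range, above the 95% critical value for 4 libraries. Across the 50 groups checked (5 genes in 10 groups), chance marks about 1 in 20.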

How the results depend on the processing

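With 1 library left out, 0 of 187 fits called any of the 5 genes. Calls appeared in 3 comparisons only. In caudal cord at 1 wpi, 2 of 5 were called with all groups in 1 fit (snap25a, adjusted p = 0.0378, and snap25b, 0.0180) and 2 after quantile normalization (0.0117 and 0.0247), and 1 with the replicate block (snap25a, 0.0409). Between 6 and 1 wpi in caudal cord, 1 was called (snap25a) after quantile normalization, after rescaling and with the block (1.31, 0.94 relative to the median, and 1.03). In rostral cord at 2 wpi, 1 was called with all groups in 1 fit (elavl3, adjusted p = 0.0274), 2 after quantile normalization (elavl3, 0.0308, and snap25a, 0.0415) and 1 with the block (elavl3, 0.0405). Over all genes, 6201 were called in caudal cord at 1 wpi with all groups in 1 fit, against 3712 in the main fit. In rostral cord at 2 wpi the block called 5565, against 4249. Quantile normalization called 2105 higher and 1862 lower at caudal 1 wpi, and 2265 and 2159 at rostral 2 wpi. The calls of the 5 in these settings are a description only. At 1 and 2 wpi the same-numbered libraries did not all correlate above 0.1 with the uninjured ones, so the rule for pairing was not met. In caudal cord at 1 wpi their r averaged 0.258 (lowest 0.0104), against -0.064 for libraries of different numbers. In rostral cord at 2 wpi it averaged 0.183 (lowest 0.0141), against -0.043. The block changed no other call of these genes. By medians in place of means, 1 pair of neighbouring groups differed by more than 1 pooled SD. Of 1200 alternative estimates for the 5 genes, 49 changed sign, none with a main size above 0.23. With replicates 1 to 3 only, these were elavl3 at rostral 1 wpi (0.16), snap25a at rostral 6 wpi (0.20), elavl4 at caudal 4 and 6 wpi (0.054 and 0.052) and between caudal 6 and 1 wpi (0.055), and isl1 between uninjured regions (-0.084). With replicates 4 and 5 only, they were isl1 and snap25b at rostral 2 wpi (0.36 and 0.22) and 4 wpi (0.12 and 0.025), snap25a at caudal 6 wpi (-0.04), and between 6 and 1 wpi snap25b and isl1 in rostral (-0.081 and 0.037) and isl1 in caudal cord (0.60). After rescaling they were elavl3 at rostral 1 wpi (0.074), isl1 at rostral 2 wpi (0.036), elavl4 at caudal 4 wpi (0.016) and snap25b between rostral 6 and 1 wpi (-0.035), with voom isl1 at rostral 2 wpi (0.0013), and with quantile normalization elavl3 and elavl4 between caudal 6 and 1 wpi (0.23 and 0.32). With 1 library left out, the estimates that crossed 0 ranged as follows: elavl3 at rostral 1 wpi -0.11 to 0.081, isl1 and snap25b at rostral 2 wpi -0.085 to 0.088 and -0.15 to 0.0013, snap25a at rostral 6 wpi -0.33 to 0.097, elavl4 at caudal 1 and 4 wpi -0.19 to 0.062 and -0.14 to 0.034, snap25a at caudal 4 and 6 wpi -0.075 to 0.31 and -0.13 to 0.25, elavl4 and snap25b between caudal 6 and 1 wpi -0.19 to 0.064 and -0.067 to 0.21, snap25b between rostral 6 and 1 wpi -0.094 to 0.087, and isl1 between uninjured regions -0.0027 to 0.17. The causes were not tested. How much of the spread between libraries is counting error was not separated.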
